A study of Mus musculus with 7 samples.

Results

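The genes described here are 44 genes of the cell division cycle, measured by RNA-seq in the dorsal midbrain of newborn mice. They were taken as a list of gene symbols by a rule that reads no measured value, although the list was drawn up with earlier results of these data known, and are 44 of the 52636 genes in the count files. Of these, 16 act at the start of S phase or in DNA replication (S-phase genes) and 28 act in G2 or mitosis (G2/M genes). All 44 had enough reads to be tested. The study asked what the transcription factor Brn3b (gene symbol Pou4f2) does in the dorsal midbrain, the roof of the midbrain that holds the superior colliculus.

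The 3 control mice, labelled Heterozygote, carried 1 conditional (floxed) and 1 wild-type Brn3b allele, Brn3b flox/+ :: En1-Cre. The 4 conditional knockout (cKO) mice, labelled Homozygote, carried 1 conditional and 1 null allele, Brn3b flox/- :: En1-Cre. All 7 mice therefore had En1-Cre, a Cre active in the midbrain and anterior hindbrain, and a conditional allele that expresses a human alkaline phosphatase reporter from the Brn3b promoter after recombination. The controls were A2 and A6 at postnatal day 4 (P4) and A4 at P3. Among cKO mice, B1 and B8 were at P4, while B7 and B9 were at P2, an age with no control. Each library came from the tissue of 1 mouse, and in such bulk tissue fewer cells of a type cannot be told apart from less RNA per cell.

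A cell that divides passes from G1 through S phase, in which DNA is copied, to G2 and mitosis. Transcription follows the same order. E2F factors, held back by Rb proteins, switch on replication genes at the start of S phase, and the MuvB complex with B-Myb and FoxM1 switches on mitotic genes in G2, many of them through a short promoter element called the CHR (cell cycle genes homology region). In the newborn midbrain most neurons have left the cycle, and the cells that still divide are mainly glial precursors, with some vascular cells and microglia.

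The promoters of the 44 genes were searched for these elements, and a few are printed here to show them. RefSeq promoter windows (GRCm38.p6, 250 bases before and 50 after the annotated start) matched 36 of the 44 genes. A CHR, searched as TTTGAA or TTCGAA on both strands, was found in 19 of 23 G2/M promoters (82.6%) and in 3 of 13 S-phase promoters (23.1%), against 21.7% of all 27025 genes with a window (19.2% of their 32851 windows). The following stretches of 30 bases from G2/M genes hold a CHR, in capitals (TTCAAA is the element read on the other strand).

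Cdk1 (chr10:69352910-69352939, minus strand): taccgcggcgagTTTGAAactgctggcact
Ccnb2 (chr9:70421533-70421562, minus strand): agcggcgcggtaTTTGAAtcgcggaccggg
Cdc20 (chr4:118437344-118437373, minus strand): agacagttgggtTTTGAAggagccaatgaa
Ube2c (chr2:164769888-164769917, plus strand): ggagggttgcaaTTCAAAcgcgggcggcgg
Cenpa (chr5:30666890-30666919, plus strand): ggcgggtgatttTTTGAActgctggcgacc
Mki67 (chr7:135716460-135716489, minus strand): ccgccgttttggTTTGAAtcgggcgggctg
Cenpf (chr1:189688067-189688096, minus strand): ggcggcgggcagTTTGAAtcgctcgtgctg
Aspm (chr1:139454767-139454796, plus strand): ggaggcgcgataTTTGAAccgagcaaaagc
Anln (chr9:22389161-22389190, minus strand): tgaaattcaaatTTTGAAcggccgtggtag

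In these 9 genes the element in capitals began between 98 bases before and 29 bases after the start. An E2F site, searched on both strands as TTNNCGC with C or G at each N, was found in 5 of 13 S-phase promoters (38.5%), in 4 of 23 G2/M promoters (17.4%) and in 10.9% of all genes (9.57% of windows). Stretches from 3 S-phase genes hold it in capitals (in Mcm3 read on the other strand).

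Mcm6 (chr1:128359734-128359763, minus strand): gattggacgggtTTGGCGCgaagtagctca
Mcm3 (chr1:20820276-20820305, minus strand): taaacttccgtgGCGGGAAaacttgggaag
Rrm1 (chr7:102441616-102441645, plus strand): caggagaactcgTTCCCGCcaggtccgctt

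The CCAAT box, which can lie beside a CHR but was counted on its own, was present in 20 of 23 G2/M and 8 of 13 S-phase promoters, against 41.1% of all genes (37.4% of windows). A match describes these letters only. The list of CHR genes above includes Mki67, Aspm and Anln, which had the highest fold changes of the 44, and Cenpa and Ube2c, which were among the lowest, so genes with the same element stood at both ends of the comparison below.

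Libraries held between 23588248 and 87572085 counts on genes, and the 44 genes had 57 to 3562 counts each in a library. Pou4f2 itself, which checks the labels, was at 45.8 to 47.4 CPM in controls (counts scaled to the size of the library) and 9.65 to 11.6 CPM in cKO mice (log2 fold change -2.16 ± 0.13 (SE), edgeR adjusted p = 0.000566). The dorsal midbrain markers Otx2 and Pax7 were present in every mouse, at 96.3 to 122 CPM and 57.7 to 100.3 CPM. B8 stood apart from the other cKO mice: over all genes tested its log2 CPM differed by 0.40 (root mean square) from the control mean and by 0.80 from the mean of B1, B7 and B9, which were 0.79 to 0.93 from the controls, although its Pou4f2 level (10.6 CPM) was that of a cKO mouse. B8 is included in each main value, and for genes described one by one the value without it is given where it changes the call. Labels of replicates name separate mice, so the errors below are between animals.

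Transcripts of all 44 genes were detected in all 7 libraries. Summed over the S-phase genes, the level was 173 to 209 CPM, and summed over the G2/M genes it was 169 to 284 CPM, with controls and cKO mice overlapping for both sums. Per kilobase of exon, the S-phase genes were at a median of 2.58 CPM and the G2/M genes at 1.53 CPM in controls. The highest level per kilobase was that of Pcna (6.42 CPM per kilobase), the sliding clamp of DNA polymerase, and the lowest that of Aspm (0.283 CPM per kilobase), a spindle pole protein needed for the growth of the brain.

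The question of the main comparison is whether the cell cycle genes differ between Brn3b cKO and control mice. None of the 44 genes passed the test (edgeR quasi-likelihood test, Benjamini-Hochberg adjusted p under 0.05), against 0.00458% of all 21817 genes tested, which is Pou4f2 alone. At an unadjusted p under 0.05 there were 5 of 44 (11.4%), namely Mki67, Cenpa, Anln, Pcna and Mcm4, against 30.4% of all genes. DESeq2 called 1 of the 44, Mki67, against 5.5% of the 36248 genes it tested. Unlike the 21817 genes, that larger set was not filtered for low counts before the fit. Of the 44, limma-voom with sample quality weights called 17, against 48.5% of the 21817 genes. The fold changes were evenly split, with 22 above and 22 below 0 and a median of -0.00 on the log2 scale, as for all genes tested (0.00). They ran from -0.82 (Cenpa) to 0.87 (Mki67).

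The 7 mice were not alike within their groups. Without B8, 15 of the 44 genes passed in edgeR, against 46.7% of all genes. The 5 that were then higher in cKO mice were Mki67, Cenpe, Aspm, Anln and Mcm4 (11.4% of the 44, against 23.7% of all genes). The 10 lower ones were Ccne1, Cdc20, Cdca8, Birc5, Aurkb, Ube2c, Cenpa, Tyms, Tk1 and Gins2 (22.7%, against 23.1% of all genes). The share of cell cycle genes called was thus near or below that of all genes in both directions.

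**Figure D1:**
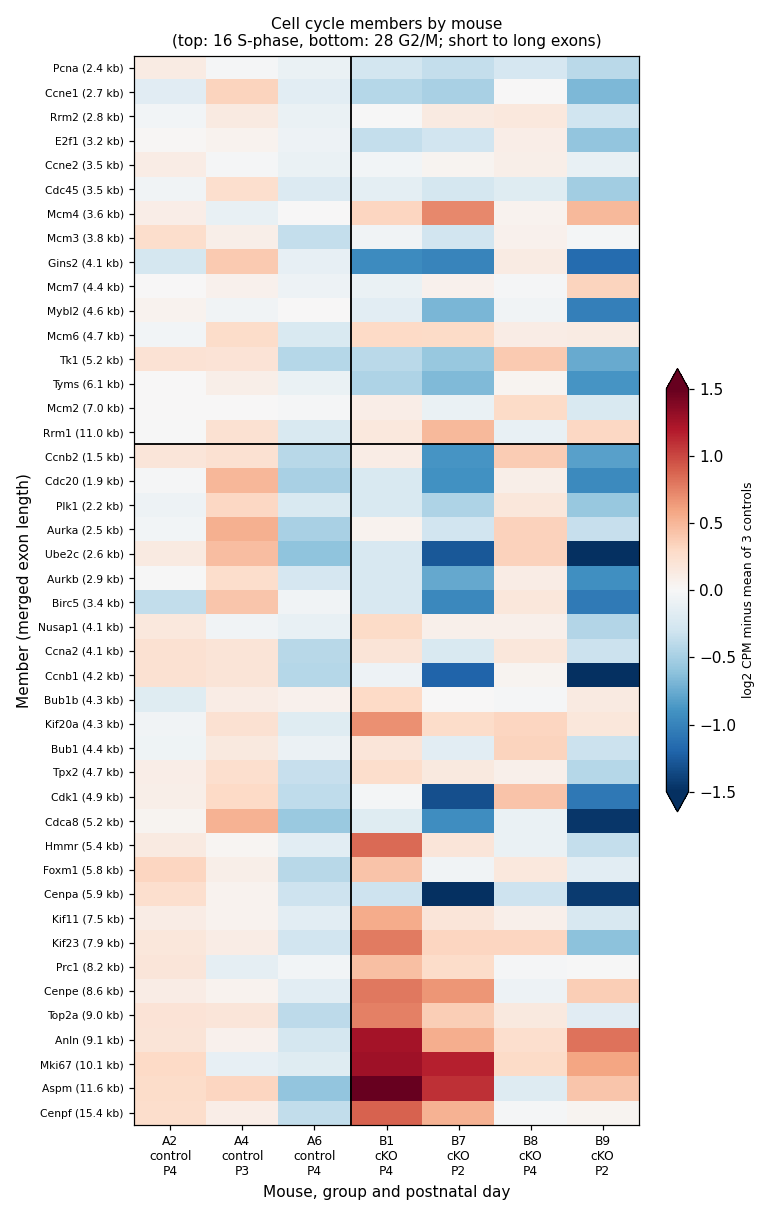
Difference of each gene in each mouse, as log2 CPM, from the control mean (colour), with the 16 S-phase genes above the line and the 28 G2/M genes below it, each ordered from short to long exons. The columns of B1, B7 and B9 are mostly blue (lower) among short genes. They are red (higher) in Cenpe, Anln, Mki67 and Aspm among the longest ones, while B8 stays close to the controls. B7 and B9, the P2 mice, hold dark blue at Ccnb1, Cdk1, Ube2c, Cdca8 and Cenpa and at the S-phase gene Gins2.

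The S-phase genes had a median log2 fold change of -0.18, with 6 above and 10 below 0. At the G1/S transition, cyclin E binds Cdk2 and starts S phase. Ccne1, one of its genes, was at 9.79 CPM in A2, 13.9 in A4 and 9.86 in A6. In cKO mice it was at 8.19 and 11.1 CPM in B1 and B8 (P4) and 7.85 and 6.91 CPM in B7 and B9 (P2) (log2 fold change -0.40 ± 0.22 (SE), edgeR adjusted p = 0.231). B8 lay within the controls and the other cKO mice lay below them, and without B8 the difference passed the test (-0.56, edgeR adjusted p = 0.0249). Ccne2, the second cyclin E gene, was at 15.8 CPM in A2, 14.4 in A4 and 13.7 in A6. The cKO mice had 14.1 and 15.5 CPM in B1 and B8 (P4) and 14.99 and 13.5 CPM in B7 and B9 (P2) (log2 fold change -0.01 ± 0.14 (SE), edgeR adjusted p = 0.968), and all 7 mice lay between 13.5 and 15.8 CPM.

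The MCM helicase unwinds DNA at the replication fork, and its 6 subunits work as 1 ring. Mcm4 (chr16:15623897-15637400, minus strand) was at 13.03 CPM in A2, 11.3 in A4 and 12.2 in A6. Mcm4 was found in cKO mice at 15.1 and 12.6 CPM in B1 and B8 (P4) and 20.1 and 16.96 CPM in B7 and B9 (P2) (log2 fold change 0.42 ± 0.18 (SE), edgeR adjusted p = 0.163). B1, B7 and B9 lay above every control and B8 within them. Mcm6 was at 21.1 CPM in A2, 26.2 in A4 and 18.5 in A6. Among cKO mice it stood at 26.7 and 23.4 CPM in B1 and B8 (P4) and 26.4 and 23.6 CPM in B7 and B9 (P2) (log2 fold change 0.19 ± 0.16 (SE), edgeR adjusted p = 0.413), and the groups overlapped. The other subunits had log2 fold changes of 0.08 for Mcm7, 0.03 for Mcm2, -0.09 for Mcm3 and -0.38 for Mcm5, which is not among the 44. Without B8, Mcm4 passed the test upward (0.52, edgeR adjusted p = 0.0143) and Mcm5 downward (-0.50, edgeR adjusted p = 0.0262), so subunits of 1 ring were called in opposite directions.

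Pcna (chr2:132249162-132253314, minus strand) holds the polymerase on DNA. It was at 16.8 CPM in A2, 15.1 in A4 and 14.3 in A6. For Pcna, the cKO levels were 12.7 and 12.9 CPM in B1 and B8 (P4) and 11.97 and 11.7 CPM in B7 and B9 (P2) (log2 fold change -0.33 ± 0.14 (SE), edgeR adjusted p = 0.159). All 4 cKO mice lay below all 3 controls, which was true of 8.01% of all genes tested. The exact two-sided permutation p, taken by doubling the smaller tail, was 0.0571. Over 35 splits of 7 mice, this doubling allows no smaller value. Pcna has named pseudogenes, whose reads the counting could split from it. Gins2 encodes a subunit of the GINS complex, which activates the helicase, and was at 4.40 CPM in A2, 6.94 in A4 and 4.86 in A6. In cKO mice it was at 2.74 and 5.79 CPM in B1 and B8 (P4) and 2.64 and 2.36 CPM in B7 and B9 (P2) (log2 fold change -0.68 ± 0.34 (SE), edgeR adjusted p = 0.198, and without B8 -1.08, edgeR adjusted p = 0.00273). B1, B7 and B9 were below every control, and B8 was among the controls.

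DNA precursors are made by the next genes. Rrm1, the large subunit of ribonucleotide reductase, had the highest CPM of the 44 genes, with 33.6 CPM in A2, 39.7 in A4 and 28.8 in A6. The cKO mice had 37.6 and 31.4 CPM in B1 and B8 (P4) and 47.4 and 41.9 CPM in B7 and B9 (P2) (log2 fold change 0.22 ± 0.18 (SE), edgeR adjusted p = 0.405). The groups overlapped. Its partner Rrm2 had a log2 fold change of 0.00 ± 0.16 (SE). Tyms, which makes thymidylate, was at 10.7 CPM in A2, 11.3 in A4 and 9.97 in A6. Tyms was found in cKO mice at 7.73 and 10.99 CPM in B1 and B8 (P4) and 6.70 and 5.76 CPM in B7 and B9 (P2) (log2 fold change -0.46 ± 0.23 (SE), edgeR adjusted p = 0.199, and without B8 -0.68, edgeR adjusted p = 0.00673). B1, B7 and B9 were below every control and B8 within them. Tk1, which salvages thymidine, had a log2 fold change of -0.30, and of -0.62 without B8 (edgeR adjusted p = 0.0489).

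Mybl2 encodes B-Myb, the factor that hands the program over from S phase to G2. It was at 3.07 CPM in A2, 2.85 in A4 and 2.96 in A6. Among cKO mice it stood at 2.64 and 2.86 CPM in B1 and B8 (P4) and 1.82 and 1.43 CPM in B7 and B9 (P2) (log2 fold change -0.45 ± 0.29 (SE), edgeR adjusted p = 0.294). The 2 P2 mice were lowest and B8 lay within the controls. The 7 S-phase genes not given mouse by mouse, Cdc45, Mcm2, Mcm3, Mcm7, Rrm2, Tk1 and E2f1, had log2 fold changes from -0.30 (Tk1) to 0.08 (Mcm7).

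The G2/M genes had a median log2 fold change of 0.02, with 16 above and 12 below 0, and a wider range than the S-phase genes. Cdk1, the kinase that drives entry into mitosis, was at 9.33 CPM in A2, 10.8 in A4 and 6.72 in A6. For Cdk1, the cKO levels were 8.62 and 11.9 CPM in B1 and B8 (P4) and 3.51 and 4.16 CPM in B7 and B9 (P2) (log2 fold change -0.36 ± 0.41 (SE), edgeR adjusted p = 0.554). B8 was the highest of all 7 mice, and B7 and B9, both at P2, were the lowest. Its partner Ccnb1, cyclin B1, was at 5.39 CPM in A2, 5.27 in A4 and 3.40 in A6. In cKO mice it was at 4.35 and 4.73 CPM in B1 and B8 (P4) and 1.97 and 1.49 CPM in B7 and B9 (P2) (log2 fold change -0.60 ± 0.41 (SE), edgeR adjusted p = 0.327). Again B7 and B9 were below all other mice. Ccna2, cyclin A2, which acts in both S phase and G2, was at 14.5 CPM in A2, 14.2 in A4 and 9.24 in A6. The cKO mice had 14.1 and 13.9 CPM in B1 and B8 (P4) and 10.5 and 9.86 CPM in B7 and B9 (P2) (log2 fold change -0.07 ± 0.22 (SE), edgeR adjusted p = 0.852), and the groups overlapped throughout.

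Cenpa (chr5:30666777-30674830, plus strand) encodes the histone H3 variant that marks the centromere, and it had the lowest fold change of the 44. It was at 10.95 CPM in A2, 9.52 in A4 and 7.41 in A6. Cenpa was found in cKO mice at 7.37 and 7.37 CPM in B1 and B8 (P4) and 3.12 and 3.37 CPM in B7 and B9 (P2) (log2 fold change -0.82 ± 0.34 (SE), edgeR adjusted p = 0.149, and without B8 -1.04, edgeR adjusted p = 0.0136). All cKO mice were below all controls, a pattern of 8.01% of all genes tested. The margin was small in B1 and B8 and wide at P2, and the exact two-sided permutation p was 0.0571. Ube2c, the enzyme that works with the anaphase-promoting complex, was at 7.72 CPM in A2, 9.69 in A4 and 4.60 in A6. Among cKO mice it stood at 5.91 and 8.92 CPM in B1 and B8 (P4) and 2.89 and 1.76 CPM in B7 and B9 (P2) (log2 fold change -0.61 ± 0.50 (SE), edgeR adjusted p = 0.409, and without B8 -1.11, edgeR adjusted p = 0.0328). B8 was at the level of the highest controls, and the P2 mice were the lowest.

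The chromosomal passenger complex corrects the attachment of chromosomes to the spindle, and 3 of its 4 subunits are among the genes. Cdca8 (borealin) was at 7.34 CPM in A2, 10.2 in A4 and 4.82 in A6. For Cdca8, the cKO levels were 6.27 and 6.65 CPM in B1 and B8 (P4) and 3.72 and 2.57 CPM in B7 and B9 (P2) (log2 fold change -0.65 ± 0.37 (SE), edgeR adjusted p = 0.241). B7 and B9 were below every control. Birc5 (survivin) and Aurkb (Aurora B kinase) had log2 fold changes of -0.49 and -0.43, and all 3 passed the test downward without B8 (edgeR adjusted p = 0.0463, 0.0350 and 0.0492). The scaffold of the complex, Incenp, which is not among the 44, had a log2 fold change of 0.26. Cdca8, Ube2c and Gins2 share exon bases with a gene on the opposite strand, and the libraries were strand-specific, but the strand setting of the counting is not given in the sources used here.

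The 3 highest fold changes of the 44 were those of Mki67, Aspm and Anln. Mki67 (ENSMUSG00000031004.8, chr7:135689784-135716361, minus strand) encodes Ki-67, the coat of mitotic chromosomes and the usual marker of dividing cells. It was at 17.2 CPM in A2, 12.8 in A4 and 12.3 in A6. In cKO mice it was at 33.6 and 17.02 CPM in B1 and B8 (P4) and 31.5 and 21.04 CPM in B7 and B9 (P2). B1, B7 and B9 exceeded every control, and B8 fell just below A2. The means were 14.1 ± 2.71 CPM in controls (SD, n = 3) and 25.8 ± 8.01 CPM in cKO mice (SD, n = 4), a log2 fold change of 0.87 ± 0.26 (SE), edgeR adjusted p = 0.138, and without B8 1.02, edgeR adjusted p = 0.00109, with an exact two-sided permutation p of 0.114. DESeq2 gave an adjusted p of 0.0322 for Mki67.

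Anln, the scaffold of the cytokinetic ring, was at 3.24 CPM in A2, 2.95 in A4 and 2.34 in A6. The cKO mice had 6.73 and 3.35 CPM in B1 and B8 (P4) and 4.14 and 4.97 CPM in B7 and B9 (P2) (log2 fold change 0.75 ± 0.28 (SE), edgeR adjusted p = 0.138, and without B8 0.88, edgeR adjusted p = 0.0109). It was the one gene of the 44 with all cKO mice above all controls, a pattern of 6.03% of all genes tested, with an exact two-sided permutation p of 0.0571. Aspm was at 3.82 CPM in A2, 3.95 in A4 and 2.08 in A6. Aspm was found in cKO mice at 9.44 and 2.76 CPM in B1 and B8 (P4) and 6.81 and 4.22 CPM in B7 and B9 (P2) (log2 fold change 0.81 ± 0.42 (SE), edgeR adjusted p = 0.206, and without B8 1.03, edgeR adjusted p = 0.0170). B1, B7 and B9 were above every control, and B8 lay within them.

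**Figure D2:**
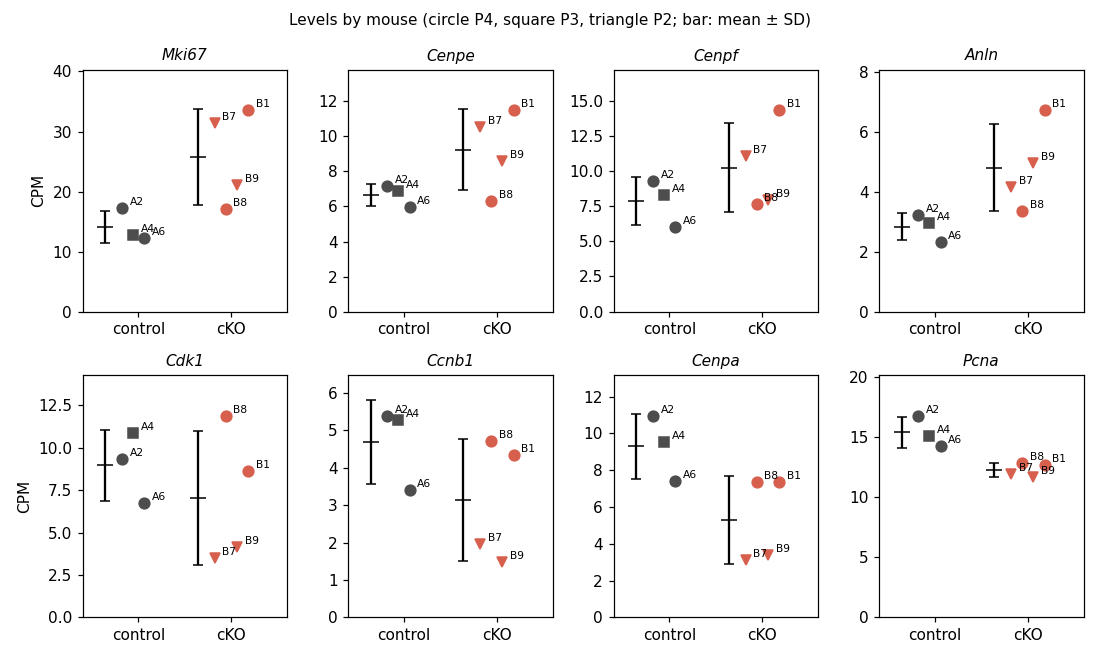
CPM of 8 genes in each mouse, with circles for P4, a square for P3 and triangles for P2, and the group mean ± SD as a bar beside the points (3 controls, 4 cKO mice). Mki67, Cenpe and Anln are highest in B1, B7 and B9 with B8 lowest of the cKO mice, whereas Cdk1, Ccnb1 and Cenpa are lowest in the P2 mice B7 and B9.

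The 17 G2/M genes not given mouse by mouse had log2 fold changes from -0.51 (Cdc20, the activator of the anaphase-promoting complex) to 0.36 (Kif20a, a kinesin of the central spindle). The checkpoint kinases Bub1 and Bub1b (0.02 and 0.10), the spindle assembly proteins Tpx2 and Nusap1 (0.01 and 0.01) and the transcription factor Foxm1 (0.08) were near 0. Top2a, the topoisomerase that untangles sister DNA, was at 0.29, and the kinases Plk1 and Aurka were at -0.27 and -0.11. The kinesins Kif11 and Kif23, the microtubule bundler Prc1 and the spindle protein Hmmr were between 0.17 and 0.26, and cyclin B2 (Ccnb2) was at -0.24. None of these passed the test with all 7 mice, and of the ones named here Cdc20 passed without B8 (-0.75, edgeR adjusted p = 0.0469).

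S-phase and G2/M genes were next set against each other within each mouse, as the median of each set relative to the control mean. The G2/M median minus the S-phase median was 0.13 in A2, 0.10 in A4 and -0.19 in A6 on the log2 scale. It was 0.40 and 0.07 in B1 and B8 (P4) and 0.25 and -0.00 in B7 and B9 (P2). B1 and B7 lay above the controls, but B8 and B9 lay within their range, so the groups overlapped. The S-phase median was -0.12 and 0.06 in B1 and B8 and -0.28 and -0.35 in B7 and B9, and that of G2/M genes was 0.27, 0.13, -0.02 and -0.35 in the same order.

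Sorted by length instead of phase, the genes lay farther apart. Of these, 3 were set apart by name as the long genes, Mki67 (10061 bases of merged exons), Cenpe (8620 bases) and Cenpf (15433 bases), although Aspm (11590 bases), Rrm1 (11012 bases), Anln (9063 bases) and Top2a (9013 bases) also exceed Cenpe in length. All 3 had fold changes above 0, with a median of 0.47. The 22 genes shorter than the median of the 44 (4390 bases) had a median of -0.25, with 6 above and 16 below 0. Cenpe, the kinesin that carries chromosomes to the spindle equator, was at 7.18 CPM in A2, 6.87 in A4 and 5.95 in A6. Among cKO mice it stood at 11.5 and 6.31 CPM in B1 and B8 (P4) and 10.6 and 8.58 CPM in B7 and B9 (P2) (log2 fold change 0.47 ± 0.23 (SE), edgeR adjusted p = 0.190, and without B8 0.61, edgeR adjusted p = 0.0141). Cenpf, a large protein of the outer kinetochore, was at 9.29 CPM in A2, 8.29 in A4 and 5.99 in A6. For Cenpf, the cKO levels were 14.4 and 7.66 CPM in B1 and B8 (P4) and 11.1 and 7.92 CPM in B7 and B9 (P2) (log2 fold change 0.38 ± 0.26 (SE), edgeR adjusted p = 0.332). For both, B1 was the highest mouse and B7 came next, while B8 was within the controls, as was B9 for Cenpf.

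The same trend ran through all protein-coding genes. Their median log2 fold change was -0.52 for exon lengths under 2 kb (2092 genes), -0.20 from 2 to 4 kb, 0.12 from 4 to 8 kb and 0.43 at 8 kb or more (2707 genes). The cell cycle genes in these classes had medians of -0.37 (2 genes), -0.27 (13 genes), 0.01 (21 genes) and 0.42 (8 genes). All 8 of the longest were above 0, as were 87.4% of all protein-coding genes of that length. Genes of 8 kb or more were at a median of 0.46, 0.61 and 0.58 in B1, B7 and B9, and at -0.00 in B8, relative to the controls. Over all 4 cKO mice, the medians of the long and the short cell cycle genes thus lay close to those of all protein-coding genes of like length. Single mice departed from this. From 4 to 8 kb, the cell cycle genes were at 0.19 and 0.08 in B1 and B8, against 0.13 and -0.01 for all protein-coding genes. In B7 and B9 they were at -0.10 and -0.43, against 0.18 and 0.16.

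As a description, Spearman's rho between log2 fold change and exon length was 0.58 over the 44 genes and 0.58 over 15513 protein-coding genes, points that share the same 7 libraries. By mouse, over the 44 genes, it was 0.59 and -0.20 in B1 and B8 and 0.56 and 0.43 in B7 and B9, and in the controls 0.45 in A2, -0.34 in A4 and -0.03 in A6. Longer genes also had lower GC content (rho -0.45 over the 44), and rho between fold change and GC content was -0.52. After a smooth trend of exon length and GC content had been removed from each library, rho with length was 0.11. The long genes then had a median of 0.01 (Mki67 0.40, Cenpe 0.01 and Cenpf -0.23), the S-phase genes -0.23 and the G2/M genes -0.15, against -0.04 over all genes. Of the 44, 32 were below 0, against 53.5% of all genes. Aspm and Anln were then at 0.24 and 0.31, and Rrm1 turned to -0.32, while Cenpa and Tyms were at -0.996 and -0.68. Again none passed the test, against 0.00458% of all genes, and 3 of 44 had an unadjusted p under 0.05 (6.82%, against 26.3% of all genes).

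**Figure D3:**
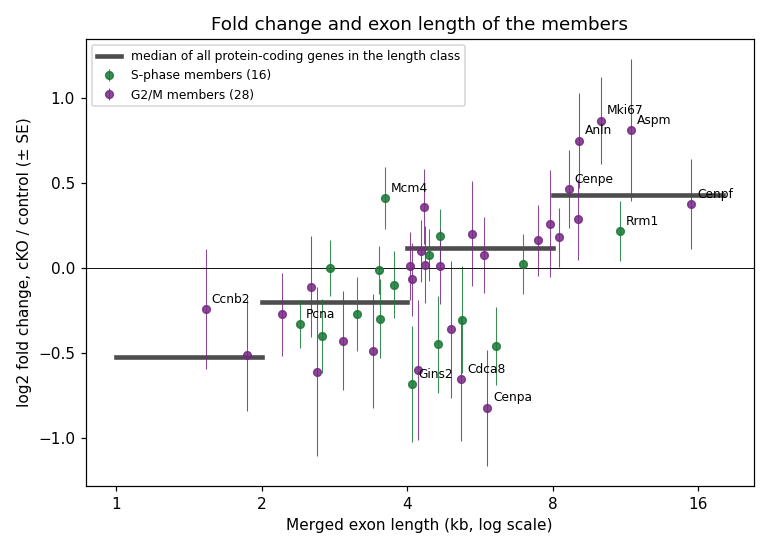
Log2 fold change (cKO over control) of the 16 S-phase genes (green) and 28 G2/M genes (purple) against merged exon length on a log axis. Error bars are ± SE derived from the edgeR F statistic. Grey lines mark the median of all protein-coding genes of each length class. The genes rise with length along the grey lines, from medians of -0.37 under 2 kb to 0.42 at 8 kb or more, with Cenpa, Gins2, Cdca8 and Ccnb1 farthest below the lines and Mcm4 farthest above.

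With the correction applied and B8 left out, 8 of the 44 genes passed, against 33.7% of all genes, and all were lower in cKO mice (18.2%, against 19.4% of all genes called lower). They were Cdk1, Ccnb1, Cdca8, Birc5, Cenpa, Tyms, Tk1 and Gins2. None of the 3 long genes passed in that fit, and the 5 called higher without B8 before the correction, Mki67, Cenpe, Aspm, Anln and the shorter Mcm4 (now 0.39, edgeR adjusted p = 0.0505), were no longer called. Ccne1, Cdc20, Aurkb and Ube2c, called lower before it, were not called after it either, and Cdk1 and Ccnb1 were called only after it.

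**Figure D4:**
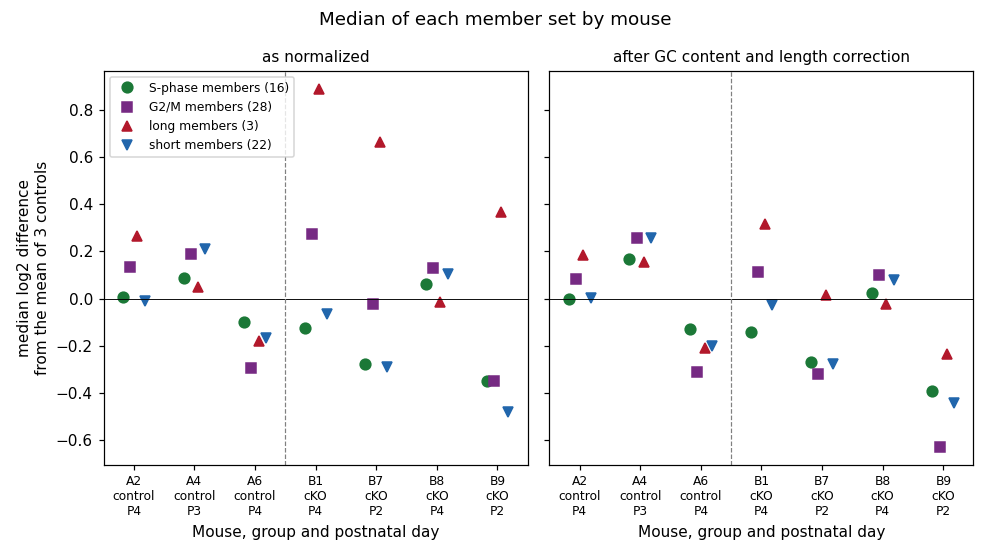
Median log2 difference from the control mean for S-phase, G2/M, long and short genes in each mouse, as normalized (left) and after the correction for GC content and exon length (right). On the left the 3 long genes stand at 0.89, 0.66 and 0.37 in B1, B7 and B9 and at -0.01 in B8, and on the right they move toward the other sets, while the S-phase and G2/M medians of B7 and B9 stay below 0.

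Age was the second division among the cKO mice. In a fit with 3 groups, 14 of the 44 genes differed between P2 cKO mice and controls (31.8%, against 37.1% of all genes, edgeR adjusted p under 0.05). Mki67 and Mcm4 were higher (4.55%, against 18.7% of all genes), and 12 were lower: Cdk1, Ccnb1, Ccnb2, Cdc20, Cdca8, Birc5, Aurkb, Ube2c, Cenpa, Tyms, Gins2 and Mybl2. These 12 are 27.3% of the 44, against 18.4% of all genes called lower, and 9 of them are G2/M genes. The log2 fold changes were -1.67 for Ube2c (edgeR adjusted p = 0.0105), -1.52 for Cenpa (0.00741), -1.44 for Ccnb1 (0.00838) and -1.23 for Cdk1 (0.00943). After the correction for length and GC content, Ccnb2, Cdc20, Aurkb, Gins2 and Mybl2 were no longer called, while Kif11 and Prc1 were newly called lower. In that fit 9 were lower (20.5%, against 13.8% of all genes) and 1, Mcm4, was higher (2.27%, against 11.1%). These calls rested on both P2 mice: without B7 or without B9, which leaves 1 P2 mouse assumed to vary like the other groups, 0 of the 44 were called, with 4 and 5 genes called in all. The number of the 44 called was 4 without A4 (9.09%, against 20.4% of all genes), 9 without A2 (20.5%, against 27.2%), 10 without A6 (22.7%, against 22.1%) and 20 without B1 or B8 (45.5%, against 47.8% and 49%).

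Between P4 cKO mice and controls none of the 44 passed, against 0.00458% of all genes, and 28 were above and 16 below 0, against 49.8% of all genes below 0. At an unadjusted p under 0.05 there were 2, Mki67 and Anln, against 6.87% of all genes. The same 4 genes had log2 fold changes of 0.02 (Ube2c), -0.33 (Cenpa), -0.05 (Ccnb1) and 0.19 (Cdk1). Both contrasts use the same 3 controls. With B8 left out of this fit, B1 was the one P4 cKO mouse, assumed to vary like the other groups, and 5 of the 44 were called, all G2/M genes and all higher (11.4%, against 12.8% of all genes called higher). With the P4 mice alone, 2 controls against 2 cKO mice, the S-phase median was -0.00 and the G2/M median 0.32, 35 of the 44 genes were above and 9 below 0 (49.1% of all genes were below 0), and edgeR called 0 genes in all, with 245 at an unadjusted p under 0.05.

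Within the cKO genotype, P2 and P4 mice were compared directly, and 39 of the 44 genes were lower at P2, against 51% of all genes. The median difference was -0.48 for G2/M genes and -0.20 for S-phase genes on the log2 scale, and -0.02 over all genes. These values moved with single mice. The number lower at P2 was 32 without B1, 33 without B9, 40 without B8 and 41 without B7. The G2/M median was -0.30 without B9 and -0.59 without B7. The S-phase median was -0.10 without B8 and -0.36 without B7. Without B1 the 2 medians were -0.36 and -0.26. With all 7 mice, edgeR called 0 of the 44 and 0% of all genes. At an unadjusted p under 0.05 there were 11 of 44 (25.0%), all lower at P2, against 25% of all genes. The 5 largest differences were all in G2/M genes. They were -1.68 ± 0.40 (SE) for Ube2c, -1.42 ± 0.28 for Cdk1, -1.39 ± 0.31 for Ccnb1, -1.18 ± 0.24 for Cenpa and -1.12 ± 0.29 for Ccnb2, with edgeR adjusted p from 0.0996 to 0.101.

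Of these 5 genes, picked for the size of their difference, Cdk1 was at 3.51 and 4.16 CPM in the P2 mice and at 8.62 and 11.9 CPM in the P4 cKO mice. After the correction for length and GC content, 41 of the 44 were lower at P2, against 49.3% of all genes, with 21 at an unadjusted p under 0.05 (47.7%, against 18.9% of all genes) and still 0 called. Without B8, which leaves B1 as the one P4 cKO mouse, 40 were lower (49.7% of all genes were) and 0 were called. Without B1, which leaves B8 as the one P4 cKO mouse, 12 of the 44 were called, all lower at P2 (27.3%, against 17.8% of all genes called lower). The P2 libraries were also the deepest (67792192 and 87572085 counts on genes) and had the lowest share of reads aligned to more than 1 place (8.14% and 8.33%, against 9.76% to 11.1% in the other mice), so age and library cannot be told apart here. Ccnb1 and Ccnb2 have named pseudogenes.

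Genes that regulate the cycle but are not among the 44 gave no call either with all 7 mice, and their counts at an unadjusted p under 0.05 stand against 30.4% of all genes. Of 6 G1 cyclins and kinases, 4 were above and 2 below 0, and 1 had an unadjusted p under 0.05, Cdk6, which had the largest fold change (log2 fold change 0.57 ± 0.20 (SE), edgeR adjusted p = 0.138, and without B8 0.70, edgeR adjusted p = 0.00305), a partner of the D cyclins with 13989 bases of exons. Leaving B8 out, 1 of these 6 was called higher and 2 lower (against 23.7% and 23.1% of all genes). After the correction for length and GC content, Cdk6 was at -0.02. Of the 7 Cdk inhibitors, which hold cells in G1, 6 were tested and 5 of these were below 0, with a median of -0.42 and 2 at an unadjusted p under 0.05. The largest fold change among them was that of Cdkn2d, at 61.7 CPM in A2, 78.7 in A4 and 59.4 in A6. In cKO mice it was at 42.8 and 56.7 CPM in B1 and B8 (P4) and 30.4 and 27.9 CPM in B7 and B9 (P2) (log2 fold change -0.76 ± 0.24 (SE), edgeR adjusted p = 0.138, and without B8 -0.99, edgeR adjusted p = 0.000526). After the correction Cdkn2d was at -0.44. Every cKO mouse was below every control for Cdkn2d, a pattern of 8.01% of all genes tested, with B8 the nearest to them. Without B8, 1 of the inhibitors was called higher and 3 lower (against 23.7% and 23.1% of all genes).

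Of 14 Rb, E2F and MuvB genes, 10 were above 0, the median was 0.33, and 8 had an unadjusted p under 0.05. Rb1, the founding member of the Rb family, had the largest fold change, with 43.3 CPM in A2, 38.3 in A4 and 38.3 in A6. The cKO mice had 62.1 and 42.03 CPM in B1 and B8 (P4) and 95.01 and 88.1 CPM in B7 and B9 (P2) (log2 fold change 0.85 ± 0.26 (SE), edgeR adjusted p = 0.138, and without B8 1.03, edgeR adjusted p = 0.000217), and B8 lay within the controls. Lin54, the MuvB subunit that binds the CHR, had a log2 fold change of 0.73 ± 0.20 (SE), edgeR adjusted p = 0.138, and without B8 0.87, edgeR adjusted p = 0.000577, and Lin37, another subunit, -0.72 ± 0.28 (SE), edgeR adjusted p = 0.140, and without B8 -1.02, edgeR adjusted p = 0.000774. The exons of these 2 measure 5820 and 1388 bases. The correction brought Rb1 to 0.49, Lin54 to 0.42 and Lin37 to -0.37. Without B8, 7 of the 14 were called higher and 3 lower, against 23.7% and 23.1% of all genes.

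Of 18 other replication genes, 5 were above and 13 below 0 (median -0.10), 1 had an unadjusted p under 0.05, and the largest fold change was that of Pola1, the catalytic subunit of DNA polymerase alpha (log2 fold change 0.60 ± 0.26 (SE), edgeR adjusted p = 0.158, and without B8 0.77, edgeR adjusted p = 0.00548, 8813 bases of exons). Of these 18, 1 was called higher and 4 lower without B8, against 23.7% and 23.1% of all genes, and Pola1 was at 0.11 after the correction. Of 30 other mitosis genes, 14 were above and 16 below 0 (median -0.00), and 2 had an unadjusted p under 0.05. The largest was Knl1, the kinetochore scaffold to which Bub1 binds, with 8542 bases of exons (log2 fold change 1.499 ± 0.44 (SE), edgeR adjusted p = 0.138, and without B8 1.72, edgeR adjusted p = 0.00175). It was at 2.03 CPM in A2, 1.17 in A4 and 0.730 in A6. Knl1 was found in cKO mice at 4.95 and 1.85 CPM in B1 and B8 (P4) and 4.86 and 3.12 CPM in B7 and B9 (P2). Only B8, of the cKO mice, was below the highest control, and the fold change of Knl1 was larger than that of any of the 44 (after the correction it was 0.95 on the log2 scale). Of these 30, 3 were called higher and 5 lower without B8, again against 23.7% and 23.1% of all genes.

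Markers of cell types that could divide in this tissue were read beside these genes. Their sums, here and below, were not corrected for exon length or GC content. Protein-coding genes under 2 kb were at median log2 differences from the controls of -0.58, -0.80 and -0.76 in B1, B7 and B9. In B8 that median was -0.05. The 7 markers of radial glia and progenitors summed to 1539 to 1848 CPM in controls and to 870 to 1597 CPM in cKO mice, where the P2 mice were lowest (1039 CPM in B7 and 870 CPM in B9). Most of that sum is Fabp7, a fatty acid binding protein of radial glia, which was at 1277 to 1545 CPM in controls and at 1035 and 1293 CPM in B1 and B8 and 761 and 576 CPM in B7 and B9. None of the 7 was called, with 2 above and 5 below 0 (1 was called higher and 2 lower without B8, against 23.7% and 23.1% of all genes), and Sox2 was at 53.4 to 60.4 CPM in all mice. The 5 markers of oligodendrocyte precursors summed to 301 to 346 CPM in controls and to 251 to 347 CPM in cKO mice, with 2 above and 3 below 0, and 1 was called higher and 3 lower without B8, against the same shares of all genes. The lowest were again the P2 mice, with 278 CPM in B7 and 251 CPM in B9.

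The 6 red blood cell markers were all below 0, with a median of -1.17, and 3 were called lower without B8, against 23.1% of all genes. They summed to 132 to 497 CPM in controls, highest in A4, to 178 and 179 CPM in the P4 cKO mice and to 61.8 and 58.0 CPM in the P2 mice. The 7 markers of cerebellar granule precursors, a dividing neighbour of the midbrain, summed to 248 to 301 CPM in controls and 228 to 332 CPM in cKO mice, and their defining gene Atoh1 was at 0 in 5 of 7 mice and at most 0.0730 CPM. Astrocyte markers summed to 667 to 729 CPM, microglial markers to 72.7 to 117 CPM, endothelial markers to 112 to 183 CPM, meningeal markers to 175 to 406 CPM and neuronal markers to 4325 to 5649 CPM over the 7 mice. Of 5 markers of forebrain neuroblasts, which summed to 0.517 to 1.39 CPM in 6 mice and to 10.6 CPM in A4, 2 were tested. The part of these cells in the levels of the 44 genes was not tested.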

How the data were processed

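PolyA RNA of dorsal midbrain tissue (3 control mice, 4 cKO mice) was made into strand-specific libraries and read as pairs. Trimmed reads were mapped by the authors to GRCm38.p5 (TopHat2, Bowtie2) and assigned to GENCODE vM15 genes by HTSeq, and the raw counts were deposited without normalization. The strand and overlap options of HTSeq are not given in the sources used here. Reads assigned to no gene (31.0% to 38.2% of each library) were left out. Symbols, exon lengths and GC content came from GENCODE vM21, which matched 52489 of 52636 gene IDs. Of the 44 genes, 15 share exon bases with another gene (3 on the same strand, 13 on the opposite) and 4 have named pseudogenes.

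The counts were tested in R 4.3.3 with edgeR 4.0.16 (filterByExpr with a minimum count of 10 and a total of 15, TMM factors, glmQLFit, glmQLFTest, condition only, Benjamini-Hochberg adjustment over all 21817 genes tested, threshold 0.05). CPM uses TMM library sizes, and log2 CPM adds a prior count of 2. The edgeR test gives no SE, so each SE is the absolute log2 fold change divided by the square root of its F statistic. Ages were compared in a fit with 3 groups (control, P2 cKO, P4 cKO). Single genes also had an exact two-sided permutation test, in which the smaller tail was doubled. Alternatives were DESeq2 1.42.0 (independent filtering at 0.1, genes left at NA stayed NA), limma-voom 3.58.1 with sample quality weights, RLE factors, no filter, age as a covariate, P4 mice only, leaving out each mouse, and removal of a smooth trend of exon length and GC content per library (mgcv 1.9.3). The script was tested on simulated data. Every pair of libraries in a group differed by more than sampling noise.

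The genes and lists were chosen with earlier results of these data known. Genes were given mouse by mouse if they were named as long (Mki67, Cenpe, Cenpf), were Cdk1, Ccnb1, Ccna2, Ccne1, Ccne2 or Pcna, or were among the 3 highest or 3 lowest fold changes of their phase, and other lists by their largest fold change. Mcm5, Incenp, Lin54, Lin37, Fabp7 and Sox2 were named after their values were seen. Without B8 and the correction together, the correction in the fit with 3 groups, and leaving each mouse other than B8 out of that fit were added after seeing the data.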

Additional observations from a re-analysis of the deposited data

Results flagged for a closer look

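Gins2 in B8 stood apart from the other cKO mice. It was at 5.79 CPM in B8, against 2.74 CPM in B1, 2.64 CPM in B7 and 2.36 CPM in B9, a gap that took 0.889 of the spread among these 4 mice. The controls were at 4.398, 6.94 and 4.86 CPM. It was the 1 value flagged of 48 examined, where chance would flag about 2.4.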

How the results depend on the processing

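Of the 300 values from 20 genes under 15 alternatives, 281 kept their direction, and 16 of the genes passed the test in at least 1 alternative. Against 1 gene called in all and 0 of the 44, DESeq2 called 1994 genes (1414 higher, 580 lower) and 1 of the 44, limma-voom 10583 and 17, and P4 mice alone 0 genes. Leaving out each mouse gave 1 to 9867 genes and 0 to 15 of the 44, the highest without B8, and the correction for exon length and GC content without B8 gave 7127 and 8. Leaving out each mouse in the fit with 3 groups gave 0 to 5 of the 44 for P4 cKO mice against controls (5 without B8), 0 to 20 for P2 cKO mice against controls (0 without B7 or B9) and 0 to 12 for P2 against P4 cKO mice (12 without B1). Calls over all genes moved in the same fits, to 4929 without B8 in the first, from 4 to 10348 in the second and to 7260 without B1 in the third. The cause of these differences was not tested.

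Among the medians, P4 mice alone gave -0.00489 for S-phase genes, 0.32 for G2/M genes and 0.15 for short genes. Leaving out each mouse gave -0.279 to -0.106 for S-phase genes and -0.078 to 0.144 for G2/M genes. It gave 0.344 to 0.608 for long genes and -0.35 to -0.107 for short genes. The correction gave 0.0092 for long genes, and without B8 it gave 0.0345 for long and -0.27 for G2/M genes.

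Single genes reversed as follows. With P4 mice alone, the log2 fold change was 0.36 for Cdk1, 0.051 for Ccnb1, 0.24 for Ccna2, 0.0111 for Ccne2, 0.091 for Cdca8 and 0.28 for Ube2c. With age as a covariate it was 0.0167 for Ccna2 and 0.0100 for Ccne2. After the correction it was -0.23 for Cenpf and -0.32 for Rrm1, and without B8 as well -0.30 and -0.38. Leaving out each mouse gave -0.248 to 0.0368 for Ccna2 and -0.0578 to 0.0409 for Ccne2.

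No paired analysis was possible because the labels name the mice (A2 to B9) and give no replicate numbers that the 2 genotypes share. The 44 genes had 57 or more counts in every library, and the P2 mice have no control of the same age.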
